A study of Mus musculus with 9 samples.

Results

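The transcripts of 47 genes that act in S phase or mitosis were followed in 66cl4 cells, a mouse mammary carcinoma line labelled as triple-negative breast cancer. The genes were listed by symbol for their place in the cycle, with earlier results of these data known. All 47 were found among the 52208 genes of the table and all 47 passed the filter on low counts that left 16766 genes for testing. They fall into 23 G1/S genes, which license and start DNA replication, and 24 G2/M genes, which build and separate the mitotic chromosomes. The 9 libraries form 3 groups of 3. Scramble cells carried the shScramble hairpin and an empty vector. Knockdown cells carried the shEya3 hairpin, which lowers the transcript of the coactivator and phosphatase Eya3, and the same empty vector. Add-back cells carried the shEya3 hairpin and IKK2-SE, an always-active version of an NF-kB pathway kinase, and thus share the hairpin with the knockdown cells. All groups were kept in puromycin and selected for mCherry. Only the 1 line is used, sample titles and table columns number the Eya3 hairpin differently, and whether each replicate was transduced on its own is not stated, so the p-values speak only to the scatter among these 9 libraries.

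Cells enter the cycle when D-type cyclins bind CDK4 or CDK6 and phosphorylate the retinoblastoma protein, which frees E2F factors to switch on cyclin E and the replication genes. Cyclin E with CDK2 then drives origin firing by the MCM helicase, and cyclins A and B with CDK1 drive mitosis. Mitotic genes are held down in resting cells by the DREAM complex, which reads a short promoter element called the cell cycle genes homology region (CHR), and are raised later by B-MYB and FOXM1. The CDK inhibitors p21 and p27 oppose both steps. In growing tumour cells, levels of these transcripts follow both the share of cells in each phase and the amount made per cell, and in bulk RNA those contributions cannot be told apart.

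Library totals ran from 63601403 to 81534534 counts. Levels are given as CPM, the counts relative to library size after TMM scaling, and changes as log2 fold change ± SE from edgeR's quasi-likelihood test, with a gene called at an adjusted p below 0.05 over all 16766 genes tested. Eya3 stood at 60.91 to 64.13 CPM in the scramble libraries, 24.28 to 25.34 CPM in the knockdown libraries and 24.66 to 28.99 CPM in the add-back libraries, so each library with the hairpin lay below each scramble library. The epithelial markers Epcam and Cdh1 reached at most 0.0664 and 0.124 CPM in any library, while Krt8, a keratin, stood at 594 to 1387 CPM. The blood cell genes Ptprc, Adgre1 and Cd3e stayed at or below 0.199 CPM in all 9 libraries, while the macrophage marker Lyz2 stood at 14.86 to 21.3 CPM. Summed over 4 endothelial markers the level was 4.32 to 5.1 CPM in the scramble, 0.213 to 0.459 CPM in the knockdown and 0.622 to 0.971 CPM in the add-back libraries, nearly all from Cdh5, with Pecam1 at most 0.263 CPM. The 6 epithelial markers summed to 596 to 650, 1250 to 1390 and 1030 to 1110 CPM, nearly all Krt8, while Krt14 and Krt19 fell under the knockdown, from 1.24 to 0.305 and from 0.606 to 0.0595 CPM on average (edgeR adjusted p = 5.12e-05 and 0.00021). The 4 fibroblast markers summed to 48.2 to 49.9, 44.2 to 48.9 and 52.9 to 56.4 CPM, most of it Pdgfra. Of these, Pdgfrb rose from a mean of 1.24 to 7.08 CPM in the knockdown and 10.71 CPM in the add-back cells, and Dcn from 0 to 0.0647 and 0.713 CPM (edgeR adjusted p = 2.84e-11 and 0.00465 for the knockdown, 1.9e-12 and 1.58e-06 for the add-back cells against scramble). Pdgfra went the other way, from a mean of 47.94 to 39.79 and 42.68 CPM, by -0.269 and -0.167. It was called lower than in the scramble cells in both groups. The 4 macrophage markers summed to 15.9 to 18.6, 15 to 18 and 19.8 to 21.4 CPM in the same order of groups, nearly all Lyz2. Every add-back library was above all others for Lyz2. Of the 2 macrophage markers tested, 1 was called higher in the add-back cells against knockdown cells, and 1 against scramble cells. The part of all these markers in the members' changes was not tested. None of 9 mitochondrial transcripts was called in any of the 3 comparisons, but they spread widely within groups. Their median log2 CPM relative to each gene's scramble mean was -0.0328, 0.085 and -0.0556 in the scramble libraries. It was -0.294, -0.0369 and 0.253 in the knockdown and -0.193, 0.255 and 0.00246 in the add-back libraries. The 47 genes summed to 10930, 11110 and 10980 CPM in the scramble libraries, 11230, 11100 and 11080 CPM in the knockdown libraries and 10710, 10790 and 10880 CPM in the add-back libraries. The scramble and knockdown sums overlapped, and every add-back sum lay slightly below them all. Without Ccnd1 the other 46 summed to 9234 to 9406 CPM in the scramble, 8612 to 8699 CPM in the knockdown and 8505 to 8659 CPM in the add-back libraries, with no overlap between the scramble libraries and the rest. These sums weigh abundant members most. Under the knockdown Ccnd1 rose from a mean of 1677 to 2474 CPM and Ccnd2 from 456.2 to 569.7 CPM. Rrm1 fell from 599 to 373.8 CPM and Cdk4 from 492.9 to 355.9 CPM.

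In the scramble cells the members' levels per kilobase of exon spanned from 5.96 CPM per kb for Cdc25c, the phosphatase that activates CDK1, to 356.1 CPM per kb for Ccnd1, which encodes cyclin D1. Cdk4 was next at 151.7 CPM per kb. The replication clamp Pcna, the helicase subunit Mcm7, the anaphase activator Cdc20 and the ribonucleotide reductase subunit Rrm2 lay close together between 92.06 and 96.12 CPM per kb. The other D-type cyclins were far below Ccnd1, with Ccnd2 at 48.49 and Ccnd3 at 7.33 CPM per kb. Mki67, the gene of the proliferation marker Ki-67, stood at 76.59 CPM per kb.

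The 2 classes differ in their promoters. RefSeq windows on GRCm38.p6, from 250 bases before to 50 after each start, were matched by symbol for 37 of the 47 members. The CHR letters TTTGAA or TTCGAA, searched on both strands, stood in the window of 14 of 19 G2/M members (73.7%), 2 of 18 G1/S members (11.1%) and 17.2% of 10751 tested genes with a window. An E2F element was searched as TTTCGCGC, TTTGGCGC, TTTCCCGC or TTTGCCGC on both strands, some of which overlap each other. It stood in 7 of 18 G1/S members (38.9%), in 1 of 19 G2/M members, which was Cdk1, and in 4.5% of tested genes. CCAAT, the letters that NF-Y binds, stood in 84.2% of G2/M members, 55.6% of G1/S members and 44.0% of tested genes. A match is a description of the letters and not a measured site.

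**Figure D1:**
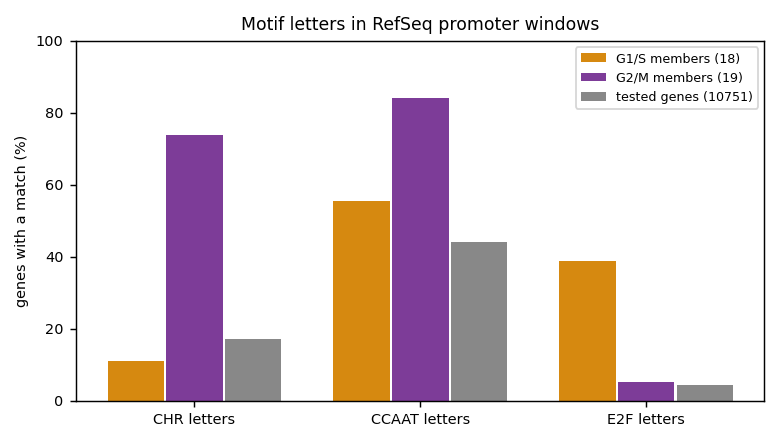
Share of genes (y axis, percent) whose RefSeq promoter window holds the CHR, CCAAT or E2F letters, for 18 G1/S members, 19 G2/M members and 10751 tested genes. The CHR bar is tallest in the G2/M members (73.7%) and the E2F bar in the G1/S members (38.9%).

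The runs below are shown because they carry these letters in members that have a single window and were called between knockdown and scramble cells. Each is the stretch outside annotated exons in the 160 bases before the RefSeq start, read 5′ to 3′ on the gene's strand, with CHR, E2F and CCAAT letters of either strand in capitals. Of the G2/M members, Cdc20 (chr4:118437353-118437503, minus strand) rose, while Top2a (chr11:99024190-99024349, minus strand), Cdk1 (chr10:69352939-69353072, minus strand) and Mki67 (chr7:135716380-135716539, minus strand) fell.
Cdc20: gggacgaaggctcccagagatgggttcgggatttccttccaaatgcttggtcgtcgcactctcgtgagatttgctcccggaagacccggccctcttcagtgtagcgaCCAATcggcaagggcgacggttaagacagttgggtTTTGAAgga
Top2a: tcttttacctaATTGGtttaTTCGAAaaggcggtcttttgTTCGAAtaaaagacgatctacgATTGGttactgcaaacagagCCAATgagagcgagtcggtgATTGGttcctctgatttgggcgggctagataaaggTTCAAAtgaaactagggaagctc
Cdk1: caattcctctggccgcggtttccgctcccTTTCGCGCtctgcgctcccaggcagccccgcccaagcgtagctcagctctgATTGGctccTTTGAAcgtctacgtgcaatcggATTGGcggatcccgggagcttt
Mki67: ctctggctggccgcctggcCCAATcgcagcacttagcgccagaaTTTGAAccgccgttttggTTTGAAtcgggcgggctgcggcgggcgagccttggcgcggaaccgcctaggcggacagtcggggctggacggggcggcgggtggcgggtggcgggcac

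Among the G1/S members, Mcm5 (chr8:75109349-75109508, plus strand) and Cdc6 (chr11:98907991-98908150, plus strand) hold E2F letters. Rrm1 (chr7:102441535-102441694, plus strand), the G1/S member with the smallest adjusted p, holds CCAAT letters and none of the 4 E2F spellings. All of them fell in the knockdown cells.
Mcm5: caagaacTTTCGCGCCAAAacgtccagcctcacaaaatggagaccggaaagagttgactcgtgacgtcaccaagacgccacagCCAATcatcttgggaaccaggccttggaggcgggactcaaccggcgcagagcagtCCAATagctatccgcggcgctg
Cdc6: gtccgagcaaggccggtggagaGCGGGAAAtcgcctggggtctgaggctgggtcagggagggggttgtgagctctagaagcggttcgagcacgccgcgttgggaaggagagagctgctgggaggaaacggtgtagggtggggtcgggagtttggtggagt
Rrm1: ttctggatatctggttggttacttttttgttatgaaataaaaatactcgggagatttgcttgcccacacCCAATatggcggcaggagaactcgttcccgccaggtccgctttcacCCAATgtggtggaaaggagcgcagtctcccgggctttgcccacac

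Of the 14 G2/M members with CHR letters, 8 were called lower, 3 higher and 3 were not called in the knockdown cells, with a median of -0.12. Of the 5 without them, 1 was lower, 2 were higher and 2 were not called, with a median of 0.053. Over all tested genes 27.7% were called higher and 29.9% lower. Of the 7 G1/S members with E2F letters, 4 were lower, 1 higher and 2 were not called, with a median of -0.092. Of the 11 without them, 7 were lower, 3 higher and 1 was not called, with a median of -0.302. The median fall was thus larger without the E2F letters.

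The knockdown cells were compared with the scramble cells to see how the cycle genes stand at lowered Eya3. Most of the members moved, and more fell than rose. Of the 47, 12 were called higher, 23 lower and 12 were not called, beside 57.5% of all tested genes called, 27.7% higher and 29.9% lower. In the G1/S class 6 members rose, 13 fell and 4 were not called, with a median change of -0.14. In the G2/M class 6 rose, 10 fell and 8 were not called, with a median of -0.053. The changes were small: the median size was 0.18 over the members and 0.32 over all tested genes. None of the 47 reached 2-fold, which 14.7% of tested genes did with a call. When library totals alone set the scale, 3 G1/S members were called higher, and the medians were -0.19 for G1/S and -0.10 for G2/M. Without knockdown replicate 1 the G2/M median was -0.031.

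**Figure D2:**
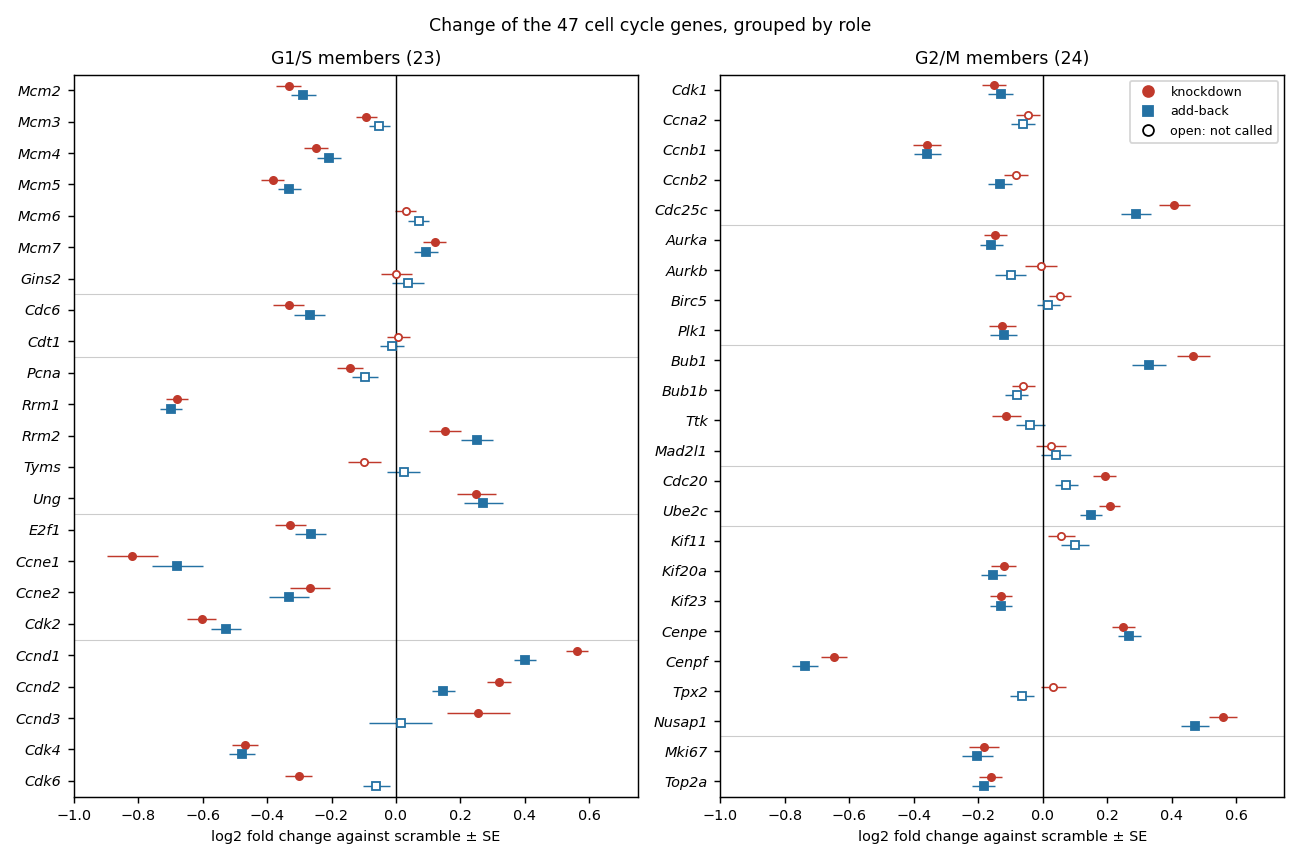
Log2 fold change ± SE against scramble cells (x axis) of the 23 G1/S members and 24 G2/M members, grouped by role (grey lines), for the knockdown cells (red circles) and the add-back cells (blue squares), from 3 libraries a group. Open symbols were not called. Ccne1, Cdk2, Rrm1, Cdk4 and Cenpf lie furthest to the left, and Ccnd1, Nusap1 and Bub1 furthest to the right. The blue and red points share the scramble libraries.

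The cyclin E arm fell as a whole. Ccne1 (chromosome 7, 38097984 to 38107534, minus strand), which encodes cyclin E1, was at 21.1, 21.74 and 23.61 CPM in the scramble libraries, 11.77, 11.76 and 14.19 CPM in the knockdown libraries and 13.31, 13.37 and 14.83 CPM in the add-back libraries. All 6 libraries with the Eya3 hairpin lay below all scramble libraries. Ccne1 fell by 0.82 ± 0.08, or 1.76-fold, under the knockdown (edgeR adjusted p = 1.75e-07), the steepest change of any member.

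Cdk2 (chromosome 10, 128697939 to 128705031, minus strand), the kinase that cyclin E activates, was at 74.25, 76.25 and 75 CPM in the scramble libraries, 47.62, 52.78 and 48.03 CPM in the knockdown libraries and 53.08, 50.36 and 53 CPM in the add-back libraries. It fell by 0.60 ± 0.05 under the knockdown (edgeR adjusted p = 8.88e-09), again with every library with the Eya3 hairpin below every scramble library. Ccne2, the second cyclin E gene, fell by 0.27 ± 0.06 (edgeR adjusted p = 0.00142). E2f1 (chromosome 2, 154559407 to 154569892, minus strand), which encodes an E2F factor, fell by 0.33 ± 0.05, from 55.4 ± 2.32 to 44.2 ± 1.76 CPM (SD, n = 3; edgeR adjusted p = 2.31e-05). All 4 genes of this role were thus called lower, beside 29.9% of all tested genes.

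The D-type cyclins moved the other way. Ccnd1 (chromosome 7, 144929931 to 144939925, minus strand) was at 1698, 1700 and 1632 CPM in the scramble libraries, 2533, 2424 and 2465 CPM in the knockdown libraries and 2202, 2218 and 2224 CPM in the add-back libraries. The 3 groups did not overlap, with the add-back libraries between the others. Ccnd1 rose by 0.56 ± 0.03, or 1.48-fold, under the knockdown (edgeR adjusted p = 5.31e-10).

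Ccnd2 (chromosome 6, 127125162 to 127152193, minus strand) was at 455, 455.7 and 458 CPM in the scramble libraries, 569.8, 564 and 575.5 CPM in the knockdown libraries and 505, 527.2 and 483.7 CPM in the add-back libraries. It had the same order of groups as Ccnd1, and rose by 0.32 ± 0.04 under the knockdown (edgeR adjusted p = 1.22e-06). Ccnd3 (chromosome 17, 47505051 to 47599691, plus strand) was at 68.32, 68.75 and 55.87 CPM in the scramble libraries, 86.44, 74.64 and 69.17 CPM in the knockdown libraries and 68.56, 67.15 and 59.06 CPM in the add-back libraries. Its libraries spread widely within each group. It rose by 0.26 ± 0.10 under the knockdown (edgeR adjusted p = 0.046), a call that leaving out a single library could end. The call was also lost when library totals set the scale (edgeR adjusted p = 0.088). On the opposite strand Bysl, whose exons share 361 bases with Ccnd3, holds 122.7% of the Ccnd3 counts, and the strand setting of the counting is not given in the sources used here.

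The kinase partners of the D-type cyclins fell. Cdk4 (chromosome 10, 127063534 to 127067920, plus strand) was at 507.9, 499.2 and 471.6 CPM in the scramble libraries, 364.7, 365 and 338 CPM in the knockdown libraries and 360.5, 350.3 and 351.9 CPM in the add-back libraries. It fell by 0.47 ± 0.04 (edgeR adjusted p = 4.34e-08), and every scramble library was above the other 6. Cdk6 (chromosome 5, 3341485 to 3531008, plus strand) was at 211.5, 231.3 and 237.7 CPM in the scramble libraries, 184.4, 180.5 and 187.2 CPM in the knockdown libraries and 213.4, 221 and 217.7 CPM in the add-back libraries. It fell by 0.30 ± 0.04 (edgeR adjusted p = 1.17e-05). Its add-back libraries lay within the range of the scramble libraries.

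**Figure D3:**
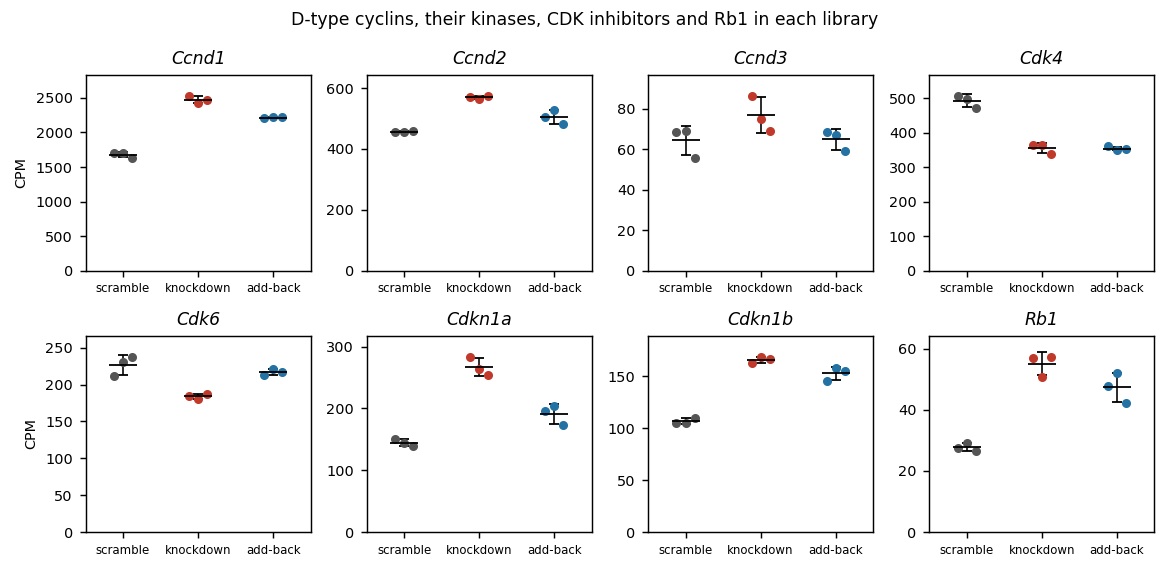
CPM (y axes, from 0) of the D-type cyclins, Cdk4, Cdk6, the CDK inhibitor genes Cdkn1a and Cdkn1b, and Rb1 in each of the 9 libraries (points), with group mean and SD (bars, n = 3). Ccnd1, Ccnd2 and Cdkn1a are highest in the knockdown cells with the add-back cells between, the add-back and knockdown libraries overlap for Cdk4, and for Cdk6 the add-back libraries lie within the scramble range.

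Among the genes of the replication helicase, 4 of 7 fell, 1 rose and 2 were not called. That is 71.4% called, beside 57.5% of all tested genes called, 27.7% higher and 29.9% lower. The subunits of the MCM2-7 ring did not move together. Mcm5 fell by 0.38 ± 0.04, from 289.4 ± 2.30 to 222.0 ± 5.52 CPM (SD, n = 3; edgeR adjusted p = 1.13e-07). Mcm2 fell by 0.33 ± 0.04 (edgeR adjusted p = 1.74e-06), Mcm4 by 0.25 ± 0.04 (edgeR adjusted p = 2.74e-05) and Mcm3 by 0.092 ± 0.033 (edgeR adjusted p = 0.0253). Mcm7 rose by 0.12 ± 0.04, from 422.7 ± 10.4 to 459.4 ± 12.4 CPM (SD, n = 3; edgeR adjusted p = 0.0103), a call that was lost when library totals set the scale (0.107). Mcm6 differed by 0.030 ± 0.033 and Gins2, a helicase cofactor, by 0.001 ± 0.049, and neither was called. Of the licensing genes that load the helicase, Cdc6 fell by 0.33 ± 0.05 (edgeR adjusted p = 1.88e-05), and Cdt1 at 148.4 ± 3.78 and 149.3 ± 4.06 CPM (SD, n = 3) was not called.

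The ribonucleotide reductase subunits, which together make deoxynucleotides, moved in opposite directions. Rrm1 (chromosome 7, 102441695 to 102469771, plus strand), the large subunit, was at 595.7, 601.4 and 599.9 CPM in the scramble libraries, 372.6, 379.7 and 369 CPM in the knockdown libraries and 361.3, 367 and 379.8 CPM in the add-back libraries. The gap between the scramble libraries and the other 6 was many times the spread within any group, and Rrm1 fell by 0.68 ± 0.03, or 1.60-fold (edgeR adjusted p = 4.94e-11). Rrm2, the small subunit that is made in S phase, rose by 0.15 ± 0.05, from 255.1 ± 10.7 to 283.6 ± 10.3 CPM (SD, n = 3; edgeR adjusted p = 0.0155). That call was lost when library totals set the scale (edgeR adjusted p = 0.0941). Pcna, the sliding clamp, fell by 0.14 ± 0.04 (edgeR adjusted p = 0.00702), and Ung, the uracil glycosylase, rose by 0.25 ± 0.06 (edgeR adjusted p = 0.00205). Tyms, thymidylate synthase, differed by -0.098 ± 0.051 and was not called.

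Changes in the mitotic genes were led by a kinetochore gene and a spindle gene that moved apart. Cenpf (chromosome 1, 189640606 to 189688086, minus strand), a kinetochore protein, was at 266.4, 279 and 270.8 CPM in the scramble libraries, 179.2, 175.2 and 166.3 CPM in the knockdown libraries and 162.7, 169.4 and 157.3 CPM in the add-back libraries. It fell by 0.65 ± 0.04, or 1.57-fold (edgeR adjusted p = 7e-10). Nusap1 (chromosome 2, 119618298 to 119651244, plus strand), which bundles spindle microtubules, was at 51.82, 49.78 and 53.12 CPM in the scramble libraries, 73.42, 75.41 and 78.97 CPM in the knockdown libraries and 69.38, 73.95 and 71.3 CPM in the add-back libraries. It rose by 0.56 ± 0.04 (edgeR adjusted p = 1.25e-08). Oip5, on the opposite strand, shares 172 exon bases with Nusap1, holds 17.2% of its counts and changed by -0.60 in the same comparison.

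Bub1 (chromosome 2, 127801122 to 127831865, minus strand), a spindle checkpoint kinase, was at 118.9, 112.9 and 100.3 CPM in the scramble libraries, 159.3, 153 and 146.8 CPM in the knockdown libraries and 141.7, 139.6 and 136.2 CPM in the add-back libraries. It rose by 0.47 ± 0.05 (edgeR adjusted p = 9.96e-07), and the 3 groups did not overlap. The other checkpoint genes did not follow it. Ttk, the kinase MPS1, fell by 0.11 ± 0.04 (edgeR adjusted p = 0.0392), while Bub1b differed by -0.060 ± 0.036 and Mad2l1 by 0.025 ± 0.047, and neither was called.

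In the group of CDK1 and its regulators the cyclin and the phosphatase parted. Ccnb1 (chromosome 13, 100778650 to 100786570, minus strand), cyclin B1, was at 135.3, 129.3 and 128.5 CPM in the scramble libraries, 105.9, 97.31 and 103.1 CPM in the knockdown libraries and 100.6, 98.84 and 107.3 CPM in the add-back libraries. It fell by 0.36 ± 0.04 (edgeR adjusted p = 2.19e-06). Cdc25c, the phosphatase that removes the inhibitory phosphates from CDK1, was at 29.24, 29.59 and 29.17 CPM in the scramble libraries, 40.75, 38.83 and 37.23 CPM in the knockdown libraries and 36.22, 34.88 and 36.46 CPM in the add-back libraries. It rose by 0.41 ± 0.05 (edgeR adjusted p = 1.36e-06). Cdk1 itself fell by 0.15 ± 0.04, from 125.3 ± 0.47 to 112.8 ± 3.04 CPM (SD, n = 3; edgeR adjusted p = 0.00249). Ccna2 and Ccnb2, cyclins A2 and B2, differed by -0.046 ± 0.038 and -0.084 ± 0.037 and were not called.

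The 2 members of the anaphase-promoting step rose, beside 27.7% of all tested genes called higher. Cdc20 (chromosome 4, 118432901 to 118437352, minus strand), the activator of the anaphase-promoting complex, was at 181.6, 176.9 and 173.4 CPM in the scramble libraries, 208.3, 199.4 and 200.1 CPM in the knockdown libraries and 191.1, 182.2 and 186.4 CPM in the add-back libraries. It rose by 0.19 ± 0.04 (edgeR adjusted p = 0.000232). Ube2c, the ubiquitin-conjugating enzyme of that complex, rose by 0.21 ± 0.03 (edgeR adjusted p = 6.15e-05). Outside the members, Fzr1, the gene of another activator of that complex, went the other way, from a mean of 132.3 to 86.72 CPM. Cenpe (chromosome 3, 135212537 to 135273611, plus strand), a kinetochore motor, was at 182, 185.8 and 190.6 CPM in the scramble libraries, 225.7, 218.1 and 220.4 CPM in the knockdown libraries and 218.9, 225.7 and 228.1 CPM in the add-back libraries, and rose by 0.25 ± 0.04 (edgeR adjusted p = 1.23e-05).

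The remaining G2/M members changed by less. Mki67 fell by 0.18 ± 0.05, from 770.5 ± 47.2 to 678.8 ± 25.2 CPM, and Top2a, the topoisomerase that untangles sister chromatids, fell by 0.16 ± 0.03, from 706.0 ± 4.4 to 631.0 ± 18.6 CPM (SD, n = 3; edgeR adjusted p = 0.00348 and 0.000752). The mitotic kinase genes Aurka and Plk1 fell by 0.15 ± 0.04 and 0.13 ± 0.04 (edgeR adjusted p = 0.0026 and 0.0154), and the cytokinesis motors Kif23 and Kif20a by 0.13 ± 0.03 and 0.12 ± 0.04 (edgeR adjusted p = 0.00361 and 0.0116). Aurkb and Birc5, which work together in the chromosomal passenger complex, were not called, nor were the spindle motor Kif11 and the spindle assembly factor Tpx2. Their differences lay between -0.005 and 0.058.

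Of the 35 calls, 28 held under all 18 alternatives and 7 did not. The 7 were Ccnd3, Kif20a, Mcm3, Mcm7, Plk1, Rrm2 and Ttk. When library totals set the scale, the calls of Mcm7, Rrm2 and Ccnd3 were lost (edgeR adjusted p = 0.107, 0.0941 and 0.088). With no filter on low counts those of Ttk and Mcm3 were lost (edgeR adjusted p = 0.108 and 0.101), and with only the 2 groups fitted that of Ttk (0.0502). Without scramble replicate 1 the calls of Ttk, Mcm3 and Rrm2 were lost (edgeR adjusted p = 0.0706, 0.0504 and 0.0801), and without scramble replicate 2 those of Plk1, Ttk and Mcm3 (edgeR adjusted p = 0.0857, 0.141 and 0.129). Scramble replicate 3 decided Ttk, Kif20a and Ccnd3 (edgeR adjusted p = 0.0703, 0.058 and 0.114 without it), and knockdown replicate 1 decided Plk1, Kif20a and Ccnd3 (0.0812, 0.0646 and 0.127). Without knockdown replicate 2, Ttk, Mcm3, Mcm7 and Ccnd3 were lost (0.168, 0.0959, 0.0545 and 0.0682), and without knockdown replicate 3, Ttk, Mcm3 and Rrm2 (0.117, 0.106 and 0.0577). Leaving out add-back replicate 1 lost Ccnd3 (0.0531), and leaving out add-back replicate 2 lost Ttk and Ccnd3 (0.0603 and 0.0551).

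The G1/S and G2/M classes were set side by side within each library, as the class median of log2 CPM relative to each gene's scramble mean. The G1/S median was -0.018, 0.019 and 0.006 in the scramble libraries, -0.13, -0.18 and -0.12 in the knockdown libraries and -0.086, -0.10 and -0.062 in the add-back libraries. The G2/M median was -0.005, 0.009 and -0.006, then -0.067, -0.044 and -0.041, then -0.091, -0.082 and -0.032. In the knockdown libraries the G1/S median lay below the G2/M median in all 3, by 0.065, 0.14 and 0.079, while the difference of G2/M minus G1/S was -0.004, 0.020 and 0.030 in the add-back libraries and 0.013, -0.011 and -0.011 in the scramble libraries. Both classes lay below their scramble range in every library with the Eya3 hairpin. Leaving the 5 cyclin D, Cdk4 and Cdk6 genes out of the G1/S class moved its median change to -0.20 in the knockdown cells, with 3 of the remaining 18 higher and 11 lower. Over all tested genes 27.7% were called higher and 29.9% lower.

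**Figure D4:**
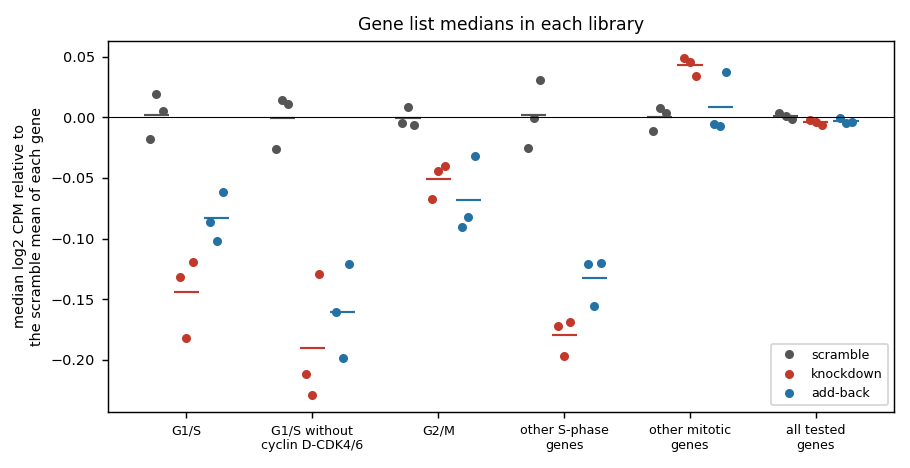
Median over each gene list of log2 CPM relative to the gene's scramble mean (y axis), in each library (points), with the mean of the 3 libraries (lines). G1/S members and the other S-phase genes are lower in all 6 libraries with the Eya3 hairpin, G2/M members are also lower in those 6 libraries, the other mitotic genes lie near or above 0, and the median of all tested genes stays near 0.

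Each member was set beside its neighbours on the chromosome. The median change of the 40 nearest tested genes was past 0.3 in size around 8 of the 47 members. It was -0.60 around Cenpf, -0.54 around Cdk4, -0.45 around Cdk2, -0.42 around Ccne1, -0.313 around Ccnb1 and -0.305 around Birc5, and 0.52 around Cenpe and 0.38 around Ccnd3. Over all other tested genes of the chromosome the median was -0.358 for Cdk2 and Cdk4 on chromosome 10 and 0.314 for Ccnd3. It was 0.245 for Cenpe, -0.162 for Ccnb1, -0.112 for Ccne1, -0.0591 for Birc5 and -0.00821 for Cenpf. Over all tested genes it was -0.001458. Cenpf, Cdk4, Ccnb1 and Aurka changed by about as much as their neighbours, and Cenpe and Ccnd3 rose by less than theirs. Cdk2 and Ccne1 fell by 0.60 and 0.82 where their neighbours had -0.45 and -0.42. Cdk1, also on chromosome 10, fell by 0.15, beside a median of -0.004 for its neighbours and -0.359 for its chromosome. Other members moved away from their surroundings: Cdk6 fell while its neighbours had a median of 0.24, Nusap1 rose against -0.24, Ccnd2 rose against -0.14, and Rrm1 fell by 0.68 where its neighbours had -0.16. Around Bub1, Ccnd1, Mcm5 and E2f1 the neighbours had medians between -0.001 and 0.027. Of the 35 called members, 19 changed in the direction of their neighbours and 16 in the opposite one. Neither this count nor that of the 8 members was made over all tested genes, so the members cannot be set against other genes here. Relative to the neighbours, the class medians were -0.16 for G1/S and -0.047 for G2/M. What the shifts of the neighbours and of whole chromosomes have to do with the members' own changes was not tested.

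**Figure D5:**
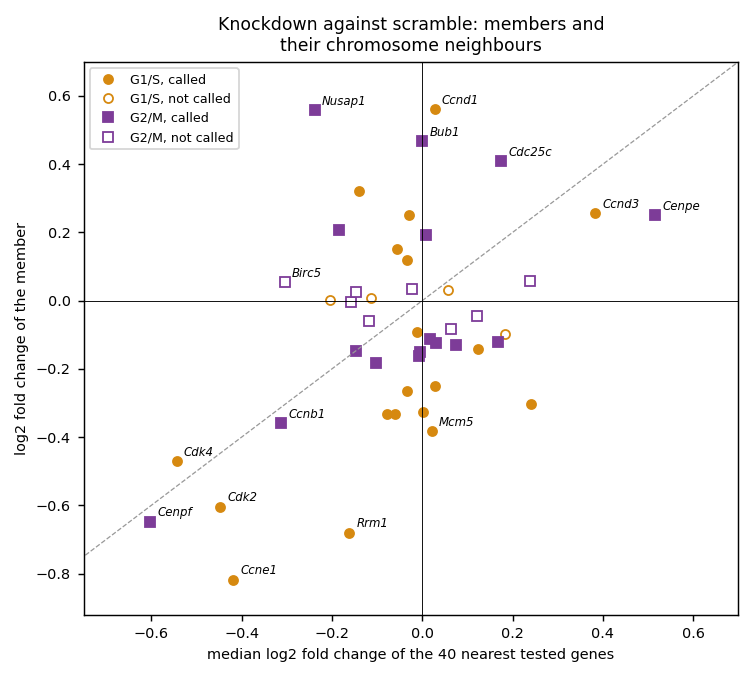
Change of each of the 47 members between knockdown and scramble cells (y axis, log2) against the median change of its 40 nearest tested genes on the chromosome (x axis, log2), with filled symbols for called members and the dashed line at equality. Cenpf, Cdk4 and Ccnb1 lie near the line, Nusap1, Ccnd1 and Bub1 lie far above it, and Rrm1, Ccne1 and Cdk6 far below it.

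Genes of the same pathway outside the 47 were read from lists of 38 S-phase genes, 49 mitotic genes and 26 tested regulators. Over all tested genes 57.5% were called, and in these lists 81.6%, 57.1% and 61.5%, so the mitotic and regulator lists lay near the share of all genes. Of the S-phase genes 8 rose, 23 fell and 7 were not called, with a median of -0.19. Prim1, the DNA primase, fell from 87.0 ± 3.05 to 48.8 ± 2.05 CPM (SD, n = 3), by 0.83 ± 0.04 (edgeR adjusted p = 1.13e-10). Rfc5, a subunit of the clamp loader, fell by 0.77 ± 0.04 (edgeR adjusted p = 4.45e-11) and Fen1, the flap endonuclease, by 0.44 ± 0.04 (edgeR adjusted p = 9.91e-08). Of the mitotic genes 16 rose, 12 fell and 21 were not called, with a median of 0.042. Nek2, a centrosome kinase, fell by 0.86 ± 0.04 (edgeR adjusted p = 1.53e-11), and Anln, the cytokinesis protein anillin, rose by 0.74 ± 0.04 (edgeR adjusted p = 2.86e-11). Foxm1, whose product activates mitotic genes, fell by 0.54 ± 0.03, from 226.5 ± 4.49 to 155.7 ± 1.54 CPM (SD, n = 3; edgeR adjusted p = 8.42e-10).

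Of the 26 regulators, 8 rose, 8 fell and 10 were not called. Cdkn1b, the gene of the CDK inhibitor p27, was at 104.9, 105.2 and 110.4 CPM in the scramble libraries, 162.5, 168.9 and 166.6 CPM in the knockdown libraries and 146, 158.5 and 154.8 CPM in the add-back libraries. It rose by 0.64 ± 0.04 under the knockdown (edgeR adjusted p = 7.82e-10). The repressor E2f7 fell by 0.71 ± 0.05 and Tfdp1, the binding partner of the E2Fs, by 0.57 ± 0.04 (edgeR adjusted p = 1.41e-09 and 1.42e-09). Rb1, chosen here after its values were seen, rose from 27.8 ± 1.31 to 55.1 ± 3.68 CPM (SD, n = 3), by 0.99 ± 0.07 (edgeR adjusted p = 3.82e-09).

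The add-back cells were compared with the knockdown cells to ask what active IKK2 changes while Eya3 is low. Of the 47 members, 1 rose, 3 fell and 43 were not called. That is 8.51% called, near the 10.4% of all tested genes called, 5.61% higher and 4.82% lower. Of the called genes 53.8% were higher, and 65.95% were higher when library totals alone set the scale, a setting that moved the G2/M median to 0.006. The class medians were 0.040 for G1/S and -0.021 for G2/M, and differences ran from -0.24 for Ccnd3, which was not called, to 0.24 for Cdk6. None of the 47 changed 2-fold, beside 1.66% of tested genes called with at least that change.

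Of the 4 called genes, 3 belong to the cyclin D and CDK4/6 group. Cdk6 rose by 0.24 ± 0.04 (edgeR adjusted p = 0.00119), with every add-back library, from 213.4 to 221 CPM, above every knockdown library, from 180.5 to 187.2 CPM. Ccnd2 fell by 0.17 ± 0.04 (edgeR adjusted p = 0.00495) and Ccnd1 by 0.16 ± 0.03 (edgeR adjusted p = 0.00512), both without overlap between groups. Each of these changes was opposite in sign to the one between knockdown and scramble cells, and the comparisons share the knockdown libraries, so they are not independent. Ccnd3 differed by -0.24 ± 0.10 and was not called (edgeR adjusted p = 0.178), though it passed when no filter on low counts was applied (3.14e-05). Cdk4 differed by -0.007 ± 0.040.

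Cdc20 was the only G2/M member called. It fell by 0.12 ± 0.04 with an edgeR adjusted p of 0.0464, and this call was lost in 14 of 18 alternatives, over which the adjusted p ran from 0.00431 to 0.179. Leaving out any 1 of the 9 libraries ended it. The adjusted p was 0.0659, 0.0897 and 0.0536 without scramble replicates 1, 2 and 3, 0.179, 0.0936 and 0.0824 without knockdown replicates 1, 2 and 3, and 0.0559, 0.159 and 0.113 without add-back replicates 1, 2 and 3. Bub1 and Tyms were not called with all libraries (edgeR adjusted p = 0.121 and 0.165). Bub1 passed without scramble replicate 3 (0.042), and Tyms passed without add-back replicate 2 (0.0222).

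None of the cyclin E, Cdk2, E2f1, helicase, licensing or nucleotide genes was called. Of 18 G1/S members outside the cyclin D and CDK4/6 group, 14 differed upwards and 4 downwards, all by 0.14 or less in size. Rrm1, the member that fell with the smallest adjusted p in the knockdown cells, differed by -0.017 ± 0.034 and Ccne1 by 0.14 ± 0.08 (edgeR adjusted p = 0.841 and 0.358). Of the other S-phase genes 1 of 38 was called, which was Rfc5, up by 0.18 ± 0.04 (edgeR adjusted p = 0.00444). Of 49 other mitotic genes 1 rose and 2 fell. That is 2.63% of the S-phase and 6.12% of the mitotic genes called, beside 10.4% of all tested genes. Kif2c, a microtubule depolymerase, rose by 0.14 ± 0.04, while Cdca3 fell by 0.19 ± 0.04 and the chromosome motor Kif4 by 0.12 ± 0.04 (edgeR adjusted p = 0.0425, 0.00866 and 0.0453).

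Among the regulators 2 rose, 1 fell and 23 were not called. That is 11.5% called, near the 10.4% of all tested genes. Cdkn1a, the gene of the CDK inhibitor p21, was at 150.8, 144.7 and 139 CPM in the scramble libraries, 283.5, 264.1 and 253.9 CPM in the knockdown libraries and 196.4, 203.6 and 172.5 CPM in the add-back libraries. The 3 groups did not overlap. Cdkn1a rose by 0.88 ± 0.06 with the hairpin (edgeR adjusted p = 1.76e-09) and was lower by 1.40-fold in the add-back than in the knockdown libraries (edgeR adjusted p = 2.76e-05). Cdkn2c, the CDK4/6 inhibitor p18, rose by 0.22 ± 0.04 and Tfdp2 by 0.20 ± 0.06 with IKK2-SE (edgeR adjusted p = 0.000953 and 0.0395). Cdkn1b and Rb1 differed by -0.12 ± 0.04 and -0.22 ± 0.07 and were not called (edgeR adjusted p = 0.0738 and 0.0517).

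The add-back cells were compared with the scramble cells to see where they stood against control cells. Of the 47 members 10 were higher, 20 lower and 17 were not called, beside 55.8% of all tested genes called, 27% higher and 28.7% lower. Again none reached 2-fold, beside 14.0% of tested genes. In the G1/S class 5 were higher and 10 lower, with a median of -0.062, and in the G2/M class 5 were higher and 10 lower, with a median of -0.073. Without scramble replicate 1 the G1/S median was -0.11, and without the cyclin D, Cdk4 and Cdk6 genes it was -0.15. These values share the scramble libraries with the knockdown comparison and are given beside it.

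Rrm1 and Cenpf stood furthest from the scramble cells. Rrm1 was lower by 1.62-fold (edgeR adjusted p = 4.03e-11) and Cenpf by 1.67-fold (edgeR adjusted p = 1.57e-10). Ccne1 was lower by 1.60-fold, Cdk2 by 1.44-fold and Cdk4 by 1.39-fold (edgeR adjusted p = 1.68e-06, 4.95e-08 and 4e-08). Ccnb1 was lower by 1.28-fold (edgeR adjusted p = 2.57e-06). Nusap1 was higher by 1.39-fold, Ccnd1 by 1.32-fold, Bub1 by 1.26-fold and Cenpe by 1.2-fold (edgeR adjusted p = 1.08e-07, 3.59e-08, 4.86e-05 and 6.22e-06). Ccnd2 was higher by 1.11-fold (edgeR adjusted p = 0.00256).

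Of the members called in the knockdown cells, 6 did not pass here. Cdk6 differed by -0.062 ± 0.042, Ccnd3 by 0.014 ± 0.099, Pcna by -0.097 ± 0.041, Mcm3 by -0.052 ± 0.033, Cdc20 by 0.073 ± 0.036 and Ttk by -0.038 ± 0.044 (edgeR adjusted p = 0.232, 0.919, 0.0564, 0.203, 0.0978 and 0.492). Of these 6, Cdk6 and Cdc20 also differed between add-back and knockdown cells by the test of that difference, with the limits on Cdc20 given above. Ccnb2 was called here, lower by 1.10-fold (edgeR adjusted p = 0.00593), and it was not called between knockdown and scramble cells (0.0642, but 0.0071 when library totals set the scale) or between add-back and knockdown cells (0.51).

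Of the 30 calls, 27 held under all 18 alternatives. Mcm7, higher by 0.094 ± 0.037 (edgeR adjusted p = 0.0395), was lost without scramble replicate 1, 2 or 3 (0.0547, 0.0508 and 0.132) and without add-back replicate 3 (0.126). It was also lost with library totals and with no filter on low counts (edgeR adjusted p = 0.102 and 0.0782). Plk1 was lost without scramble replicate 2 or add-back replicate 1 (0.107 and 0.135) and Cdk1 without add-back replicate 2 (0.063). Cdk6 passed without scramble replicate 1 (0.036), Aurkb without scramble replicate 3 (0.00995) and Pcna without add-back replicate 3 (0.013). Kif11 passed on leaving out replicate 2 of the scramble cells, 1 of the knockdown cells or 2 of the add-back cells (0.0382, 0.045 and 0.0075).

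Outside the 47, 8 of the other S-phase genes were higher and 22 lower, with Prim1 lower by 1.74-fold, Rfc5 by 1.5-fold and Dtl, a factor that marks Cdt1 for breakdown, by 1.51-fold (edgeR adjusted p = 2.15e-10, 1.35e-09 and 1.81e-07). Of the other mitotic genes 18 were higher and 12 lower, with Nek2 lower by 1.80-fold, Anln higher by 1.59-fold and Cks1b, a CDK subunit, higher by 1.64-fold (edgeR adjusted p = 2.11e-11, 1.01e-10 and 1.35e-09). Of the regulators 9 were higher and 7 lower. Fzr1, the gene of the G1 activator of the anaphase-promoting complex, was lower by 1.62-fold, E2f7 lower by 1.54-fold and Cdkn1b higher by 1.43-fold (edgeR adjusted p = 3.43e-09, 8.9e-09 and 1.07e-08). In these lists 78.9% of the S-phase, 61.2% of the mitotic and 61.5% of the regulator genes were called, beside 55.8% of all tested genes. The mitotic and regulator lists thus lay near the share of all genes.

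Several members share exon bases with a gene on the other strand, and their reads may not be told apart. The other gene's counts, as a share of the member's, were 123.4% for Ints8 beside Ccne2, 57.1% for Gse1 beside Gins2, 32.3% for Cdc23 beside Kif20a, 31.6% for Elovl1 beside Cdc20, 24.96% for Cops6 beside Mcm7, 22.5% for Tspan31 beside Cdk4 and 17.7% for Exosc9 beside Ccna2. Between knockdown and scramble cells Tspan31 changed by -0.58, Elovl1 by 0.38, Gse1 by 0.75 and Ints8 by 0.15. Processed copies of Ccnb1, Pcna, Tyms and Ccnd3 each held 1.05% or less of the member's counts.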

How the data were processed

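The authors deposited a table of raw read counts per gene for 9 libraries, made from NuGEN Universal Plus mRNA-Seq libraries per the labels' protocols. FastQC, MultiQC, STAR and the mm10 build are named in the submitters' processing notes, while no source used here names the counter, its annotation or its strand setting. Sample titles and table columns number the Eya3 hairpin differently (KD2 and KD3), and columns were matched by group and replicate. Low genes were removed with filterByExpr (minimum count 10). All 9 libraries were fitted by group with edgeR 4.0.16 in R 4.3.3 (TMM, robust quasi-likelihood, 6 residual degrees of freedom), and p-values were adjusted over 16766 genes by Benjamini-Hochberg. The scripts were tested on simulated data. Alternatives included limma 3.58.1 with voom, DESeq2 1.42.0, other scalings and filters, a replicate block, and leaving out each library. Values in every library are given for the 4 called members with the smallest adjusted p and the 3 with the largest change in each class and comparison, and for the 5 cyclin D and CDK4/6 genes. From each pathway list the 3 called genes with the smallest adjusted p are named. The members and lists were chosen with earlier results of these data known. Positions are from GENCODE on GRCm38 and promoter windows from RefSeq on GRCm38.p6, both matched by symbol or identifier. For 10 members no promoter window was used.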

Additional observations from a re-analysis of the deposited data

How the results depend on the processing

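Over 18 alternatives, 356 of 381 recomputed counts and medians stayed on the side and near the size reported, and no called member reversed. With library totals, G1/S members called higher between knockdown and scramble numbered 3, and the medians were -0.1905 for G1/S and -0.1011 for G2/M. Between add-back and knockdown cells the medians were then 0.06808 for G1/S and 0.00634 for G2/M, 65.95% of calls were higher, and 0 G2/M members were lower. That count was also 0 with a CPM filter, with only the 2 groups fitted and without the robust spread, where Cdc20 had adjusted p-values of 0.0505, 0.0937 and 0.0542. Without the cyclin D, Cdk4 and Cdk6 genes the G1/S median was -0.1958 between knockdown and scramble and -0.1526 between add-back and scramble. Leaving out single libraries gave G2/M medians of -0.0657 to -0.03149 between knockdown and scramble, G1/S medians of -0.106 to -0.04163 between add-back and scramble, and, between add-back and knockdown, 1 to 2 G1/S members higher and 0 to 1 G2/M members lower.

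Replicates with the same number correlated from -0.0111 to 0.123 over 9 pairs, not all above 0.1, so the numbers were not taken as pairs. With the replicate block, add-back against knockdown gave 2678 called genes instead of 1749, 2 G1/S members higher and 3 G2/M members lower, with Bub1, Tpx2, Rrm2 and Ccnd3 added (adjusted p = 0.00756, 0.0289, 0.0344 and 0.000273). The block also added Ccnb2 between knockdown and scramble (0.0294), and between add-back and scramble Pcna (0.0148), Cdc20 (0.0271), Aurkb (0.0318), Bub1b (0.0182), Kif11 (0.0214) and Mcm6 (0.0321).

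Members that were not called and changed sign had values near 0; the cause was not tested. With library totals, knockdown against scramble gave Mad2l1 -0.02333, Tpx2 -0.01474, Mcm6 -0.01748, Gins2 -0.04652 and Cdt1 -0.04016, and with only the 2 groups Aurkb 0.002292. Add-back against knockdown gave, with library totals, Ccna2 0.01241, Aurka 0.01537, Bub1b 0.006663, Mki67 0.007108, Top2a 0.006016, Mcm7 0.001705, Cdt1 0.008175, Rrm1 0.01052 and Cdk4 0.02099. Ccnb1 and Kif23 gave -0.00034 and -0.001716 with DESeq2 and -0.000329 and -0.001627 with its size factors. With no filter Ccnb1 gave -0.00353, Plk1 -0.00144 and Kif23 -0.004897. Add-back against scramble gave Birc5 -0.002294 and Ccnd3 -0.006363 with library totals.

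Leaving out single libraries gave, between knockdown and scramble, Aurkb -0.05989 to 0.02886, Cdt1 -0.01121 to 0.02999, Gins2 -0.004131 to 0.01921 and Mad2l1 -0.001774 to 0.055. Between add-back and knockdown it gave Aurka -0.02412 to 0.0002204, Bub1b -0.04659 to 0.00129, Ccna2 -0.04773 to 0.004953, Ccnb1 -0.03349 to 0.03192, Ccne2 -0.1192 to 0.001705, Cdk1 -0.00146 to 0.05051, Cdk4 -0.04143 to 0.01408 and Cdt1 -0.03491 to 0.002334. In the same comparison Kif23 ran from -0.01177 to 0.01909, Mad2l1 from -0.007885 to 0.05406, Mki67 from -0.05404 to 0.01266, Plk1 from -0.01946 to 0.04142, Rrm1 from -0.03694 to 0.000564 and Ung from -0.02816 to 0.06037. Between add-back and scramble Ccnd3 ran from -0.07486 to 0.08245, Cdt1 from -0.02865 to 0.01213 and Tyms from -0.03223 to 0.09035.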
